A study of Mus musculus with 5 samples.

Results

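Genes of splicing and RNA-binding proteins were compared between the adult retina of C57/B6 mice and the cortex of Swiss-Webster mice at postnatal day 1. The genes were taken by symbol: SR proteins (Srsf), hnRNP proteins, SF3 and Sm or LSm proteins, PRPF factors, DDX and DHX helicases, RBM proteins, the Elavl, Celf, Rbfox, Nova, Ptbp, Mbnl, Qk, Msi, Khdrbs, Igf2bp, Pum, Fmr and Fxr families, 3′ end, decay and export factors, and Argonaute, Dicer and Drosha. The probe annotation held 187 such genes on 287 probes, and 185 of them, on 281 probes, had a value on all 5 arrays, among 8798 measured genes in all. The symbol also brought in Fmr1nb, a neighbour of Fmr1 that is no member of its family. Celf3 and Rbm46 were the genes without a complete probe. The single Celf3 probe read between -0.15 and 0.16 log2 on 4 arrays, and the single Rbm46 probe read between -0.00 and 0.43 on 3 arrays.

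Total RNA of 1 pool of retina and 1 pool of cortex was hybridised together to each of 5 two-colour Agilent arrays, with retina in Cy5 and cortex in Cy3 on every one. The arrays are technical replicates of the same pair of pools, so the p-values measure labelling and hybridisation error and hold nothing on the spread between animals. Age, strain, tissue and dye differ together and cannot be told apart. Values are log2 ratios of retina over cortex, and both this direction and the log base of the deposited values are likely but not stated: they rest on the sample titles, the dyes and the limits of the scale. In whole tissue, fewer cells of a type and less RNA per cell cannot be told apart. All 4 measured photoreceptor markers of 10 listed were higher in retina (2.97 to 4.30), as were 4 of 4 measured markers of other retinal neurons of 6 listed (1.26 to 3.37). All 5 measured markers of immature neurons of 6 listed were lower (-3.99 to -1.84), as were the 3 measured markers of cortical projection neurons of 6 listed (-2.71 to -1.47).

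A primary transcript is spliced by the spliceosome, in which small nuclear RNAs sit on rings of Sm or LSm proteins and SF3 subunits help to hold the branch site. SR proteins mostly promote the use of nearby exons and many hnRNP proteins oppose it, while helicases of the DDX and DHX families remodel the complexes. Neurons add tissue-specific regulators such as the Elavl, Celf, Rbfox, Nova and Ptbp proteins, which choose exons or set the stability of messages, and photoreceptors use a splicing programme of their own in which Musashi proteins take part. The transcript is also cleaved and polyadenylated. The mature message is exported by the THO complex and NXF1, stored or translated, and taken apart by CCR4-NOT, the exosome and the microRNA machinery.

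Most splicing and RNA-binding protein genes lay within 1.5-fold of equal levels in both pools. The words higher and lower stand for genes whose ratio limma's treat test placed beyond 2-fold (a log2 ratio of 1) at a Benjamini-Hochberg adjusted p below 0.05. A gene is said to be above or below 0 where limma's eBayes test against a log2 ratio of 0 passed that threshold. Of the 185 genes, 1 was higher and 8 were lower in retina by the 2-fold test, 4.86% in all, against 6.63% of all measured genes. The share called higher was 0.541%, against 2.80% of all genes, and the share called lower was 4.32%, against 3.83%. Against a ratio of 0, 139 of the 185 genes (75.1%) passed, against 73.7% of all genes. Of these, 84 stood below 0, which is 45.4% of the genes against 36.7% of all genes, and 55 stood above 0, which is 29.7% against 37.0%. The median ratio was -0.07, and -0.00 over all genes. With the median probe of each gene in place of the mean it was -0.13, and -0.03 over all genes. For an even number of probes that setting takes the lower of the middle pair, a choice that itself lowers the values. A ratio within 1.5-fold was found for 138 of the 185 genes (74.6%) and for 76.8% of all genes.

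For 137 of the 185 genes (74.1%) every array gave one sign, against 73.5% of all genes. The median SD over the 5 arrays was 0.0776 log2, and 0.0852 over all genes. Between arrays, Pearson's r across the 185 genes lay between 0.798 and 0.949 in the 10 pairs, and between 0.878 and 0.956 across all genes. It is a description without a p because genes share their arrays. The pairs with array 5 gave the lowest values across the 185 genes, 0.798 to 0.845, and the other pairs gave 0.863 to 0.949. Cstf2t stood at -4.08 on array 5, and its part in these values was not tested.

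**Figure D1:**
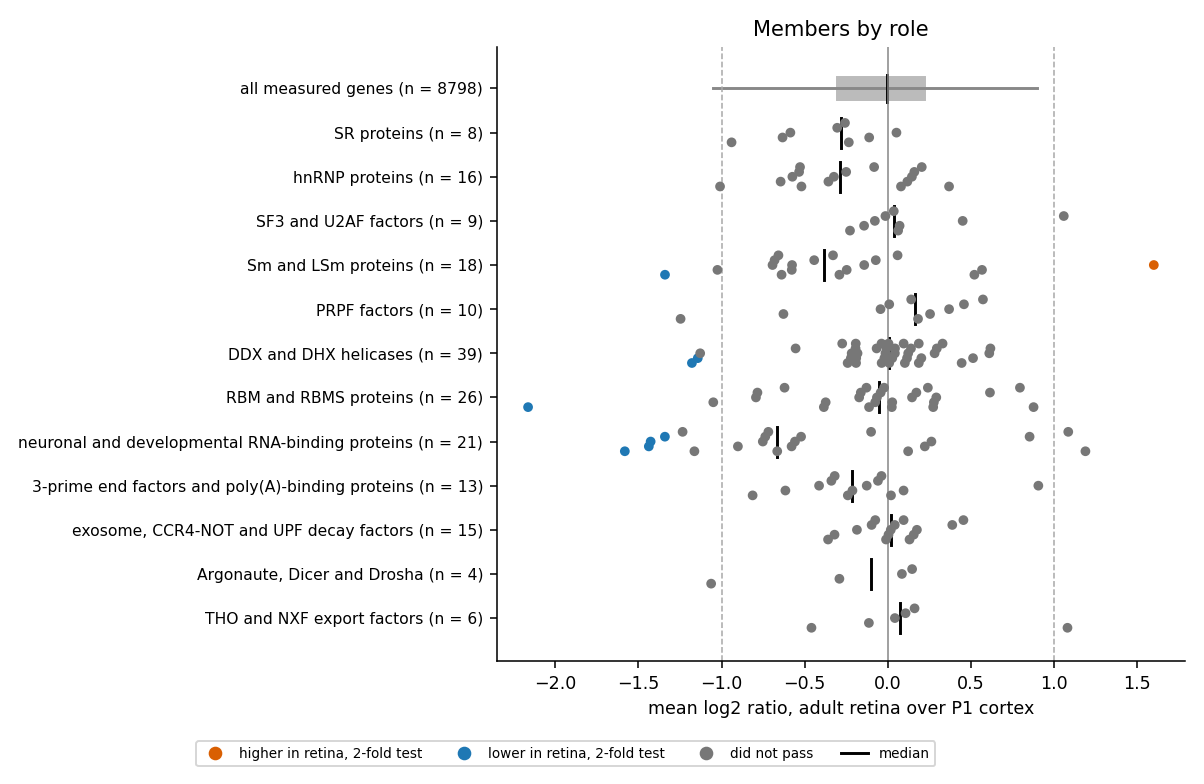
Mean log2 ratio of retina over cortex for each of the 185 splicing and RNA-binding protein genes (points), by role, with the median of each role as a bar. The top row gives all 8798 measured genes as median, quartiles (box) and 5th to 95th percentile (line), dashed lines mark 2-fold, and the lowest median is that of the neuronal and developmental proteins, at -0.67.

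The gene farthest from 0 was Rbm3, the gene of a cold-inducible protein that binds messages and is linked to their translation. Rbm3 read -2.19, -2.19, -2.09, -2.23 and -2.12 on arrays 1 to 5, so that no array came near 2-fold. Its mean was -2.16 ± 0.06 (SD, n = 5 arrays), or 4.48-fold lower in retina, with an adjusted p of 7.25e-07 in limma's 2-fold test. Among the other 25 measured RBM and RBMS genes none passed that test, so 1 of 26 was lower (3.85%, against 3.83% of all genes). Rbms1, a single-stranded nucleic acid-binding protein, was nearest, at -1.05 ± 0.04 and an adjusted p of 0.66 in limma. On the other side stood Rbm15, an adaptor of the RNA methylation complex, at 0.88 ± 0.09, Rbm7, a subunit of the nuclear exosome targeting complex, at 0.79 ± 0.20, and Rbm20, a splicing regulator of titin in heart, at 0.61 ± 0.07. Of the 26 genes, 10 were below 0 (38.5%, against 36.7% of all genes) and 8 above 0 (30.8%, against 37.0%) in limma's test. Their median was -0.05.

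The neuronal and developmental RNA-binding proteins had the lowest median of any role, at -0.67. Of 22 annotated genes 21 were measured, and 4 of them (19.0%, against 3.83% of all genes) were lower in retina, namely Elavl4, Celf2, Rbfox2 and Elavl3. None of the 21 was higher (against 2.80% of all genes). Fxr2 was the only one above 0 with an unadjusted p below 0.05 in limma's 2-fold test. Against a ratio of 0, 15 stood below (71.4%, against 36.7% of all genes) and 6 above (28.6%, against 37.0%). The 21 include Fmr1nb, 1 of the 6 above 0, at 0.12 ± 0.06. The role was set by symbol and also holds genes not particular to neurons, such as Elavl1 and Ptbp1. The markers of immature neurons, which were lower in all 5 measured cases, and those of dividing cells, of which 2 of 5 measured were lower (all 5 between -1.82 and -0.44), moved the same way. Their part in these ratios was not tested.

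The Elavl genes encode Hu proteins, which bind AU-rich stretches of messages. Elavl2, Elavl3 and Elavl4 are largely neuronal, while Elavl1 (HuR) is found in most cells. Elavl4 read -1.60, -1.47, -1.60, -1.64 and -1.60 on arrays 1 to 5, with array 2 apart from the others. Its mean was -1.58 ± 0.07 (n = 5), or 2.99-fold lower in retina (adjusted p of 2.80e-05, limma 2-fold test). Elavl3 read -1.26, -1.38, -1.32, -1.38 and -1.37, a mean of -1.34 ± 0.05 or 2.53-fold lower (adjusted p of 0.000217 in limma). All 5 arrays were past 2-fold for both genes. Elavl2 (-0.90 ± 0.07) and Elavl1 (-0.75 ± 0.03) did not pass the 2-fold test and stood below 0. On each array Elavl4 lay below its paralogs: Elavl4 minus Elavl3 ran from -0.34 to -0.09 log2, and Elavl4 minus Elavl1 from -0.88 to -0.74 log2. Each of the 4 genes had 1 probe. Probe sequences were not used here, so hybridisation of one paralog to another's probe was not tested.

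The 250 bases before the start site of Elavl3 and of Elavl4, which are the pair of neuronal Hu genes past the test, are shown so that their start regions can be compared. They were copied from the RefSeq promoter table of GRCm38.p6, at chr9:22052024-22052273 on the minus strand for Elavl3 and at chr4:110351912-110352161 on the minus strand for Elavl4, where 4 start sites are listed and the first is given. Capitals mark matches on either strand to any of 8 motifs, none of which overlap here: the CCAAT box, the TATA box TATAAA, the GC box GGGCGG, the E-box CACGTG, the cAMP response element TGACGTCA, the ETS motif CCGGAAG, the CRX and OTX motif TAATCC and the NRF1 motif.
Elavl3: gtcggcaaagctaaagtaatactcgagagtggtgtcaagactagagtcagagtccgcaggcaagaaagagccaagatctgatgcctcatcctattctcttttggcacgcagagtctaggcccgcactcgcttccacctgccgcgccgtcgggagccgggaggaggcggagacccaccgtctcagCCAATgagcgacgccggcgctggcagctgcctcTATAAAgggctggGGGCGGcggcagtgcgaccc
Elavl4: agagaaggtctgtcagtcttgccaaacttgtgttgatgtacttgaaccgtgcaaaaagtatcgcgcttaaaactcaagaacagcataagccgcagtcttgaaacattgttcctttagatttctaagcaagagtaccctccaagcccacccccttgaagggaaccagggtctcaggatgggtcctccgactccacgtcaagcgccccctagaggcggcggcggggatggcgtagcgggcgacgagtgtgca
Elavl3 held 1 match each to the CCAAT box, the TATA box and the GC box, while none of the 8 motifs lay in this window of Elavl4. GC content was 61.6% for Elavl3 and 53.6% for Elavl4. TATAAA was found in 6.21% of the 161 promoters of these genes in the table, in 6.53% of 7126 promoters of measured genes and in 13.0% of all 27025 genes listed there.

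Celf2 and Celf1 encode CUG-binding proteins that regulate splicing and message decay. Celf2 read -1.43, -1.49, -1.38, -1.59 and -1.30, a mean of -1.44 ± 0.11 or 2.71-fold lower (adjusted p of 0.000701 in limma's 2-fold test), and its 2 probes stood at -1.64 and -1.23. Celf1 read -1.30, -1.22, -1.12, -1.28 and -0.88, and its mean of -1.16 ± 0.17 missed the threshold (adjusted p of 0.319, limma). The Celf1 probes stood at -1.51 and -0.81. The lower probe taken alone passed, with an adjusted p of 0.00104 in limma with the median probe of each gene and 0.000897 with the probe farthest from 0. Without array 5, where it was nearest to 0, Celf1 averaged -1.23 and passed with an adjusted p of 0.0169 in limma. Celf5 repeated within 0.02 (SD) and stood at -0.56.

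Rbfox2, a splicing regulator that binds UGCAUG, read -1.51, -1.29, -1.48, -1.53 and -1.33. All 5 arrays were past 2-fold, and the mean of -1.43 ± 0.11, or 2.69-fold lower, had an adjusted p of 0.000822 in limma's 2-fold test. Ptbp2, which represses exons in young neurons, read -1.36, -1.32, -1.12, -1.35 and -1.02, beyond 2-fold on each array. Its mean of -1.23 ± 0.15 fell just outside the threshold, with an adjusted p of 0.0565, and passed without array 5 at -1.29 (adjusted p of 0.0208, limma). Its paralog Ptbp1, which holds neuronal exons back in other cells, stood at 0.26 ± 0.14. On each array Ptbp1 lay above Ptbp2, by 1.32 to 1.64 log2.

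Among the fragile X proteins, which bind messages at ribosomes, the paralogs lay on opposite sides of 0. Fxr2 read 1.22, 1.14, 0.99, 1.05 and 1.03, with a mean of 1.09 ± 0.09 and an adjusted p of 0.488 in limma's 2-fold test. Fmr1 read -0.86, -0.68, -0.38, -0.59 and -0.39, with a mean of -0.58 ± 0.20. Neither passed the 2-fold test, and both differed from 0 by limma (adjusted p of 1.56e-06 for Fxr2 and 0.000613 for Fmr1). Fxr2 lay above Fmr1 by 1.66 ± 0.29 log2, and the distance ran from 1.37 to 2.08 over the arrays.

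Mbnl1, a muscleblind splicing regulator, had the highest mean of the neuronal and developmental genes and did not pass the 2-fold test. It read 1.07, 0.33, 1.55, 1.44 and 1.56, with array 2 low, and its mean was 1.19 ± 0.52. The low value came from 1 of its 2 probes, which stood at -0.63 there and lay between 1.16 and 1.69 elsewhere, while the second probe read 1.30 on array 2. Without array 2 Mbnl1 averaged 1.40 and passed, with an adjusted p of 0.0446 in limma. Mbnl3 stood at 0.22 ± 0.08.

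Msi2, a Musashi protein, read between 0.78 and 0.89 on the 5 arrays and averaged 0.85 ± 0.04. That mean joined 2 probes that did not match each other, at 1.65 and at 0.06. The probe farther from 0, taken alone, passed the 2-fold test with an adjusted p of 0.000115 in limma. Nova1, an exon regulator of neurons, stood at -0.74 ± 0.15, with array 1 apart at -0.99. Khdrbs1 (Sam68) stood at -0.72 ± 0.06, the quaking gene Qk at -0.67 ± 0.08 with 3 probes from -0.98 to -0.15, Igf2bp1 at -0.52 ± 0.29 and the Pumilio gene Pum2 at -0.10 ± 0.05. These 5 genes were below 0 in limma's test and did not pass the 2-fold test.

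**Figure D2:**
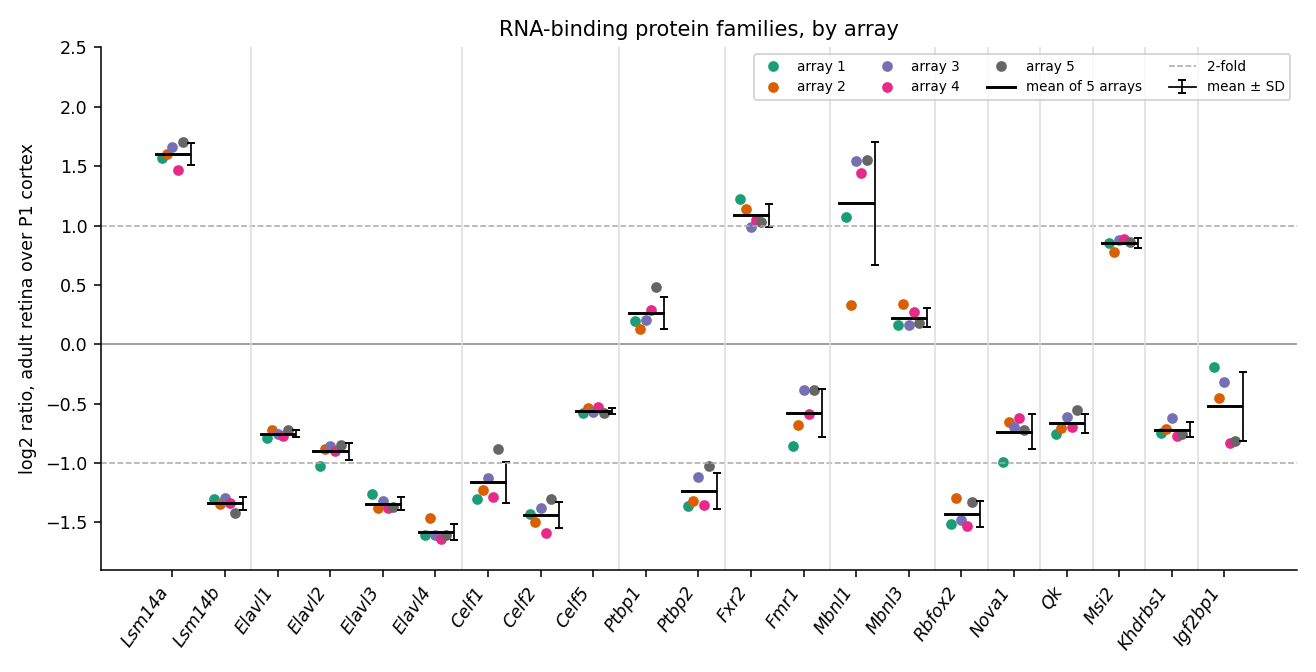
Log2 ratios of retina over cortex on arrays 1 to 5 (coloured points) for 21 genes of RNA-binding protein families, with the mean of the 5 arrays (bar), its SD and dashed lines at 2-fold. All 4 Elavl genes lie below 0, Lsm14a and Lsm14b lie beyond 2-fold on opposite sides, and the array 2 point of Mbnl1 stands apart at 0.33.

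The paralogs Lsm14a and Lsm14b encode scaffold proteins of cytoplasmic granules of stored messages, and they went opposite ways. Lsm14a read 1.57, 1.60, 1.66, 1.46 and 1.71, a mean of 1.60 ± 0.09 or 3.03-fold higher in retina, with an adjusted p of 7.52e-05 in limma's 2-fold test. Lsm14b read -1.30, -1.35, -1.30, -1.34 and -1.42, a mean of -1.34 ± 0.05 or 2.53-fold lower, with an adjusted p of 0.000217. Lsm14a was the only one of the 185 genes called higher. On each array it lay 2.80 to 3.13 log2 above Lsm14b, a mean distance of 2.94 ± 0.12. Ddx6, a helicase of the same granules, stood at 0.62 ± 0.04 and did not pass. Lsm14a and Lsm14b had 1 probe each.

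The start regions of Lsm14a and Lsm14b are shown because these paralogs differ in direction. Each is the 250 bases before the single start site in the RefSeq promoter table of GRCm38.p6, at chr7:34389706-34389955 on the minus strand for Lsm14a and at chr2:180024737-180024986 on the plus strand for Lsm14b. Capitals mark the same 8 motifs on either strand, with no overlaps.
Lsm14a: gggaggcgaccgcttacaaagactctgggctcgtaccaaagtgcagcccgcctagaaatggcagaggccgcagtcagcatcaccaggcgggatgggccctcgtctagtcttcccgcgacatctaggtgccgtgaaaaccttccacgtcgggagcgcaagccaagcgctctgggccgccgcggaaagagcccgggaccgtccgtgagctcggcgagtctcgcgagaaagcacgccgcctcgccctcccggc
Lsm14b: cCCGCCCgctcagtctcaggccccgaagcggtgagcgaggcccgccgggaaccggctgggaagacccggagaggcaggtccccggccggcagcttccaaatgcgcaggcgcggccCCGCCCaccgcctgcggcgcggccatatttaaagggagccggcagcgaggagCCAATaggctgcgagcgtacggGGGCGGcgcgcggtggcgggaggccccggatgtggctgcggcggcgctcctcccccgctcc
Lsm14b held 3 GGGCGG matches and 1 CCAAT match, and GC content was 76% for Lsm14b and 66.4% for Lsm14a. None of the 8 motifs lay in the Lsm14a window. GGGCGG was found in 55.9% of the 161 promoters of splicing and RNA-binding protein genes and in 59.6% of those of measured genes (32.9% of all listed). CCAAT was found in 42.9% and 36.0% (34.5% of all listed). Of the other motifs, CACGTG was found in 9.94% and 8.74% (6.05% of all listed), TGACGTCA in 3.11% and 2.76% (1.62%), CCGGAAG in 20.5% and 13.9% (7.05%), TAATCC in 8.07% and 5.01% (6.38%) and the NRF1 motif in 1.24% and 1.66% (0.781%). A match describes letters in the window and shows no bound factor.

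**Figure D3:**
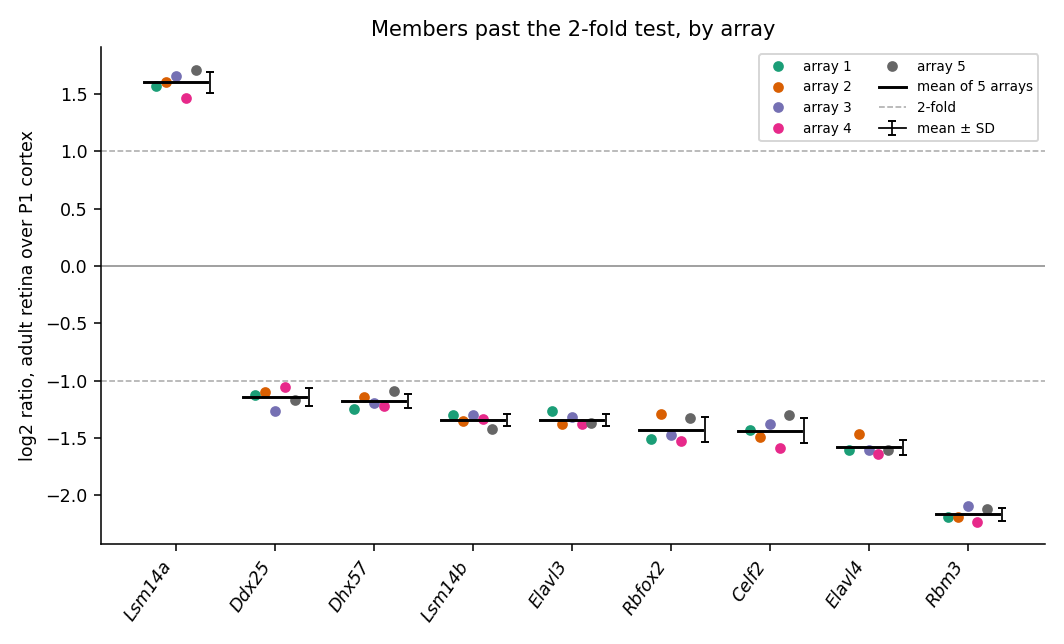
Log2 ratios of retina over cortex on arrays 1 to 5 (coloured points) for the 9 genes past limma's 2-fold test, with the mean of the 5 arrays (bar), its SD and dashed lines at 2-fold. Lsm14a alone lies above 0, and every point of the 9 genes lies beyond 2-fold.

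Genes named Snrp or Lsm encode ring proteins, proteins specific to U1 or U2 such as Snrpa and Snrpb2, and the scaffolds Lsm14a and Lsm14b. Of these 18 genes, 14 were below 0 (77.8%, against 36.7% of all genes) and 3 above 0 (16.7%, against 37.0%) in limma's test. Their median was -0.39. Apart from Lsm14a and Lsm14b none passed the 2-fold test, so 2 of the 18 passed it (11.1%, against 6.63% of all genes). Snrpb2, the U2-specific B″ protein, was lowest of the rest at -1.02 ± 0.06, followed by the U1-specific Snrpa at -0.69 ± 0.12. The Sm ring genes Snrpe (-0.66 ± 0.08), Snrpd2 (-0.64 ± 0.04), Snrpg (-0.58 ± 0.09), Snrpd1 (-0.44 ± 0.07) and Snrpf (-0.14 ± 0.07) lay below 0, while Snrpb, of the same ring, lay above at 0.52 ± 0.09. Lsm4, of the ring that binds U6 or decaying messages, stood at 0.57 ± 0.09.

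The SR proteins also leaned below 0 without reaching 2-fold. Of 8 measured genes, 7 were below 0 in limma's test (87.5%, against 36.7% of all genes), and the median was -0.28. The mean of Srsf2 (0.05 ± 0.06) did not differ from 0. It joined probes at -0.37 and 0.47, each with the same sign on every array. None passed the 2-fold test at an adjusted p (against 6.63% of all genes) or at an unadjusted p below 0.05. Srsf12 was lowest, at -0.98, -0.82, -0.93, -0.96 and -1.01 on arrays 1 to 5, a mean of -0.94 ± 0.07. Srsf6 followed at -0.63 ± 0.07 and Srsf5 at -0.59 ± 0.06. The 5 probes of Srsf10 ran from -0.63 to 0.31 around a mean of -0.11 ± 0.08. Of 6 measured kinases of SR proteins, 4 were above 0 (66.7%, against 37.0% of all genes) and 1 below 0 (16.7%, against 36.7%). None passed limma's 2-fold test at an adjusted p (against 6.63% of all genes) or at an unadjusted one. The highest was Clk1, at 0.90 ± 0.07.

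Among 16 hnRNP genes, 10 were below 0 (62.5%, against 36.7% of all genes) and 5 above 0 (31.25%, against 37.0%). Their median was -0.29. In the limma 2-fold test none passed at an adjusted p (against 6.63% of all genes) or at an unadjusted p below 0.05. Hnrnpr, which binds messages in axons, ran from -1.11 to -0.90 over the arrays and averaged -1.01 ± 0.09. Hnrnpll, a splicing regulator of lymphocytes, stood at -0.64 ± 0.16 and Hnrnpa2b1, of the hnRNP core, at -0.57 ± 0.12. The highest was Hnrnpul2 at 0.37 ± 0.04, and it lay 0.41 to 0.48 log2 above its paralog Hnrnpul1 on each array. The 3 probes of Hnrnpab ran from -1.04 to -0.19.

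The medians of the SF3 and PRPF genes lay closer to 0, and none of these genes passed the 2-fold test (against 6.63% of all genes). The 9 SF3 genes had a median of 0.04, and none had an unadjusted p below 0.05 in limma's 2-fold test. Against 0, 3 were above (33.3%, against 37.0% of all genes) and 2 below (22.2%, against 36.7%). Sf3b2 stood out within its complex, with 1.09, 1.08, 0.90, 1.10 and 1.11 and a mean of 1.06 ± 0.09, while 7 other subunits lay between -0.23 (Sf3b1) and 0.07 (Sf3a1) and Sf3a3 stood at 0.45 ± 0.04. Among 10 PRPF genes 5 were above 0 (50%, against 37.0% of all genes) and 2 below 0 (20%, against 36.7%). Their median was 0.16, and 1 had an unadjusted p below 0.05 in limma's 2-fold test. Prpf19, the ubiquitin ligase of the complex that activates the spliceosome, read -1.10, -1.32, -1.30, -1.45 and -1.06. Its mean of -1.25 ± 0.16 had an adjusted p of 0.0576, and it passed without array 5, at -1.29 with an adjusted p of 0.0422 in limma. Prpf38a was next, at -0.63 ± 0.03.

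Human PRPF3, PRPF4, PRPF6, PRPF8, PRPF31, SNRNP200, RP9, DHX38 and CWC27 are linked to retinitis pigmentosa, a degeneration of photoreceptors. Of these 9 mouse genes 8 were measured. In limma's 2-fold test none passed at an adjusted p (against 6.63% of all genes) or at an unadjusted p below 0.05. Against 0, 5 were above (62.5%, against 37.0% of all genes) and none below (against 36.7%). Prpf3 was highest, with 0.47, 0.65, 0.50, 0.59 and 0.65 and a mean of 0.57 ± 0.08. The helicase gene Dhx38 followed at 0.51 ± 0.04, Rp9 at 0.27 ± 0.13, Prpf31 at 0.25 ± 0.16 and Prpf6 at 0.18 ± 0.08. Prpf8 (0.14 ± 0.17), Snrnp200 (0.09 ± 0.10) and Prpf4 (-0.04 ± 0.15) did not differ from 0. The Snrnp200 mean joined probes at -0.36 and 0.55. The median of the list was 0.22.

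The helicases formed the largest role, with 39 genes and a median of 0.00. In retina 2 were lower (5.13%, against 3.83% of all genes). Dhx57, a DEAH-box helicase, read -1.25, -1.14, -1.19, -1.22 and -1.09, a mean of -1.18 ± 0.06 or 2.26-fold lower (adjusted p of 0.00946 in limma's 2-fold test). Ddx25, a helicase known from the testis, read -1.12, -1.10, -1.26, -1.06 and -1.17, a mean of -1.14 ± 0.08 or 2.21-fold lower (adjusted p of 0.0483). Both calls lie close to the threshold: Ddx25 lost it without any single array (adjusted p from 0.0639 to 0.156, limma), and Dhx57 without array 4 (adjusted p of 0.0518). Ddx60, an antiviral helicase singled out after its values were seen, averaged nearly as low, at -1.13 ± 1.00, but its arrays ran from -2.11 to 0.04 and it did not pass. Of the 39 genes, 14 were above 0 (35.9%, against 37.0% of all genes) and 13 below 0 (33.3%, against 36.7%). The highest were Ddx6 and the spliceosomal Dhx16, at 0.61 ± 0.05.

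The 4 remaining roles were 3′ end, decay, export and microRNA factors. In these no gene passed limma's 2-fold test, adjusted or at an unadjusted p below 0.05, against 6.63% of all genes past it. Against 0, 6 of 13 genes of 3′ end factors and poly(A)-binding proteins passed, 8 of 15 decay genes, 5 of 6 THO and NXF genes and 3 of 4 microRNA genes, against 73.7% of all genes. The 13 genes of 3′ end factors and poly(A)-binding proteins had a median of -0.21. Of these, 1 was above 0 (7.69%, against 37.0% of all genes) and 5 below 0 (38.5%, against 36.7%). Pabpn1l, an embryonic poly(A)-binding protein, stood highest at 0.91 ± 0.08. Cstf2t, a cleavage factor known from the testis, had a mean of -0.81 ± 1.83 that rests on array 5, which read -4.08, while arrays 1 to 4 read -0.16, -0.01, 0.11 and 0.07. Pabpc1, the main cytoplasmic poly(A)-binding protein, stood at -0.62 ± 0.08.

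The 15 decay genes lay between -0.36 (Cnot9) and 0.45 (Cnot6, a deadenylase of CCR4-NOT), with a median of 0.02. Exosc2, of the exosome cap, stood at 0.39 ± 0.04. In the THO and NXF group of 6, Thoc5 read 1.17, 0.62, 1.22, 0.99 and 1.42, with array 2 low, and averaged 1.08 ± 0.30. Thoc1 stood at -0.46 ± 0.18 and Thoc2 at 0.04 ± 0.05, with Thoc2 probes from -0.23 to 0.62. Of the 4 microRNA genes, Ago1 read -1.22, -1.08, -1.07, -1.23 and -0.72, a mean of -1.06 ± 0.20. Dicer1 (0.15 ± 0.06) and Drosha (0.08 ± 0.04) lay close to 0, and Ago4 averaged -0.29 ± 0.51, with -1.16 on array 2.

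Probes to 1 gene did not always match. Of the 185 genes 74 had several complete probes, and in 27 of these (against 850 of 2086 among all genes) the probes differed in sign. In 4 genes the probes differed in sign and lay over 1 log2 apart. Rbm27 had probes at 0.21 and -1.80, and the lower probe ran from -2.73 to -0.72 over the arrays. Upf2, a factor of nonsense-mediated decay, had probes at 1.00 and -0.68, and the lower one ran from -1.51 to 0.04 over the arrays. Ddx50 had probes at 0.31 and -0.79, each steady over the arrays, and the 4 probes of the splicing coactivator Rbm39 ran from -0.27 to 0.73. Which transcripts these probes read was not tested.

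**Figure D4:**
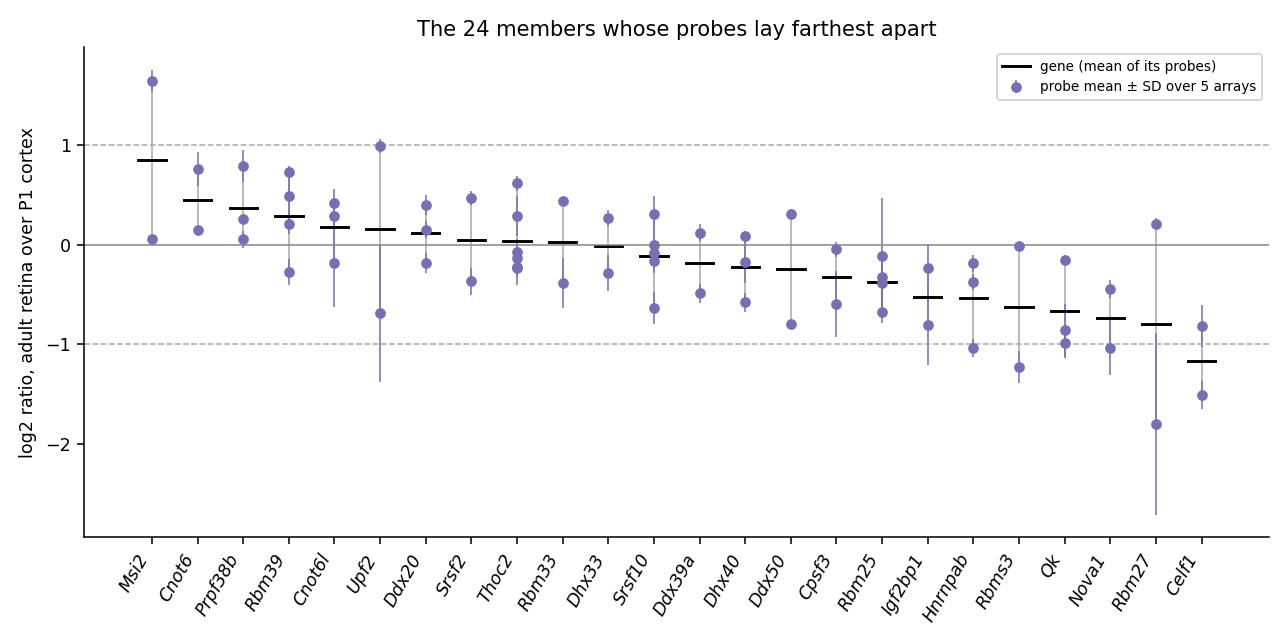
Mean log2 ratio of retina over cortex of each complete probe (points, with SD over 5 arrays) for the 24 genes whose probes lay farthest apart, with the gene value (bar) and dashed lines at 2-fold. Msi2 has probes at 1.65 and 0.06, and Rbm27 at 0.21 and -1.80.

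An SD above 0.5 log2 was found for 5 of them (2.70%), Cstf2t, Ddx60, Ddx55, Mbnl1 and Ago4, and for 2.36% of all genes. Ddx55 stood at -1.52 on array 3, while its 4 other arrays lay between 0.21 and 0.34. None of the values of these genes lay at the limit of the deposited scale. The length of the gene on the genome went with the ratio hardly at all, with a Spearman rho of 0.0103 across the 185 genes and -0.0668 across 8796 genes.

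**Figure D5:**
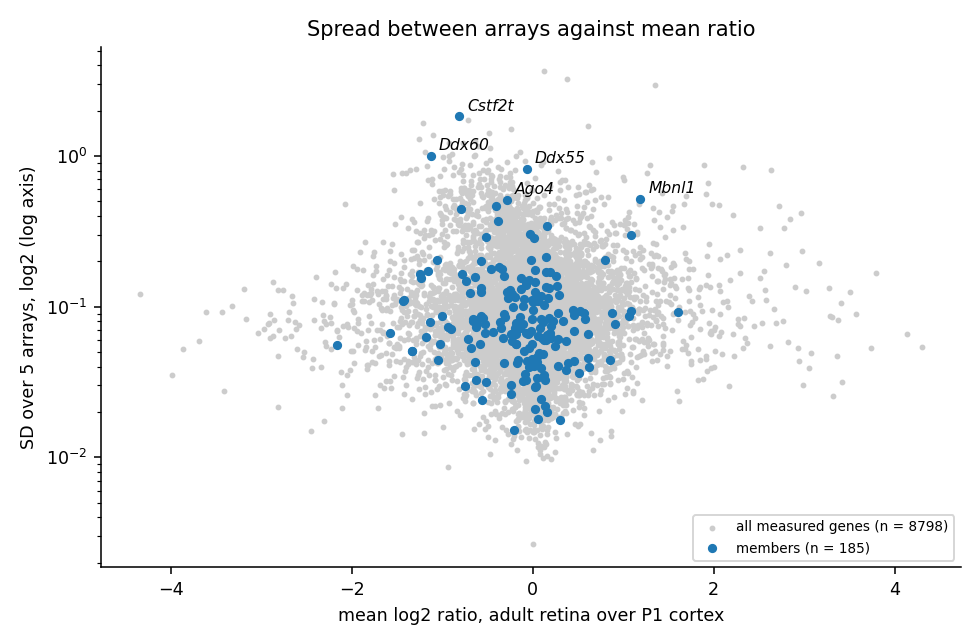
SD over the 5 arrays (log axis) against the mean log2 ratio of retina over cortex, for the 185 splicing and RNA-binding protein genes over all 8798 measured genes. The 5 labelled genes have an SD above 0.5, led by Cstf2t at 1.83.

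Other genes of the same processes, listed outside the symbol rule, were set beside these. Of 170 such genes 125 were measured, of which 3 were higher and 2 lower by limma's 2-fold test (2.40% and 1.60%, against 2.80% and 3.83% of all genes). Against 0, 57 stood above and 31 below (45.6% and 24.8%, against 37.0% and 36.7% of all genes), and the median was 0.07. The higher ones were Tob2, a recruiter of CCR4-NOT, at 1.88 ± 0.03 with probes at 0.32 and 3.44, Purb, a purine-rich element-binding protein, at 1.32 ± 0.04, and the Y-box protein Ybx3 at 1.26 ± 0.08. The lower ones were Pspc1, of nuclear paraspeckles, at -1.73 ± 0.19 and Prkra, a partner of Dicer, at -1.29 ± 0.12. By list, the medians were 0.05 for 43 other spliceosome factors, -0.00 for 9 genes of snRNP assembly, 0.19 for 25 other messenger RNA-binding and transport proteins, -0.03 for 7 exon junction, export and cap-binding factors, 0.30 for 10 other 3′ end factors, 0.09 for 18 other decay factors, -0.05 for 9 other microRNA factors and 0.10 for the kinases of SR proteins. In the lists of snRNP assembly, exon junction and 3′ end factors none passed, adjusted or at an unadjusted p below 0.05, and those farthest from 0 were Gemin6 (-0.42), Alyref (-0.26) and Papola (0.50).

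Markers of other cells were measured as well. Among 3 measured glial genes of 5 listed, Clu was higher at 2.18 ± 0.15, Gja1 lower at -1.48 ± 0.14, and Glul stood at 0.71 ± 0.09. Of 4 measured meningeal genes of 5 listed 3 were lower (-1.86 to -1.35) and Col1a1 stood above 0, at 0.52 ± 0.05. Also lower were the red cell gene Hbb-b2 (-1.66) and the transthyretin gene Ttr, listed for pigment epithelium (-1.40). Of 2 measured vessel genes Flt1 was higher at 1.44 ± 0.08, and Pecam1, at 0.14 ± 0.17, did not pass the test against 0. No microglial (2 measured), oligodendrocyte (1), muscle (2) or lens gene (1) passed limma's 2-fold test, and of these Crygb, of the lens, had an unadjusted p below 0.05. What part any of these cells had in the ratios above was not tested.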

How the data were processed

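The deposited table holds 1 column per array and 21446 probes. The values deposited by the authors were read as log10 ratios, retina in Cy5 over cortex in Cy3 per the labels. They stop at 2 and -2, and the base and direction are likely, not stated. How background and dyes were corrected remains without a statement in the sources used here. Their columns look centred (medians of 0, and -7.32e-05 on array 5), by a method that stays unknown. Spot intensities were not used here, and the small number of arrays sets the precision.

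Multiplying by 3.32 gave log2 ratios. Exact 0 entries, of which arrays 1 to 5 had 174, 203, 214, 1068 and 406, were taken as missing. The annotation named 1 gene for 11813 probes, several for 559 and none for 9074 that it does not list. Symbols were matched by gene identifier to RefSeq (GRCm38.p6) for 11782 probes. A gene's value is the mean over its complete probes. Per gene, limma 3.58.1 in R 4.3.3 fitted an intercept over the 5 arrays (lmFit), tested by treat beyond 2-fold and by eBayes against 0, two-sided, with Benjamini-Hochberg adjustment over 8798 genes and a threshold of 0.05. The procedure was tested on simulated data. Promoters were searched in Python 3.11.15.

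The genes and lists were chosen with earlier results of these data known. Named are all genes past the 2-fold test, the 2 farthest from 0 in each role, all measured genes of the Rbfox, Celf, Elavl, Nova, Ptbp, Mbnl, Qk, Msi, Khdrbs, Igf2bp, Fmr1, Fxr, Ago, Dicer and Drosha families, genes whose probes differ in sign by over 1 log2, and from the other lists the genes past the test or the 1 farthest from 0. Of the 185 genes the rule took 47. Further genes and the pairs of paralogs were chosen after their values were seen. Alternatives changed the normalization, the handling of missing values, noisy genes and probes, the model settings, the fold tested, the log base, the symbols and the arrays used.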

Additional observations from a re-analysis of the deposited data

Results flagged for a closer look

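Each of 47 named genes was checked for an array whose gap to the nearest other array took up more than 71% of the range over the 5 arrays, and 6 were found, where chance gives about 5% of genes. Among all 185 genes 16 were found, or 8.65%, of which array 2 was the one apart in 6, array 1 in 4, array 5 in 3, array 3 in 2 and array 4 in 1.

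On array 5 Cstf2t stood at -4.08, while its other arrays ran from -0.16 to 0.11, and without array 5 its mean was 0.00. For Elavl4, array 2 gave -1.47 and the other arrays -1.64 to -1.60. For Elavl2, array 1 gave -1.02 and the other arrays -0.90 to -0.85. Nova1 was also apart on array 1, at -0.99 where its other arrays gave -0.72 to -0.62. For Sf3b2, array 3 gave 0.90 and the other arrays 1.08 to 1.11. Ddx50 read -0.29 on array 1 and -0.23 on each of the others, a gap that is small in size. Apart from Cstf2t, the signs of these genes were the same on all 5 arrays.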

How the results depend on the processing

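Counting an exact 0 as a measured ratio and dropping arrays 1 and 4 together were alternatives chosen after seeing the data. Without arrays 1 and 4, 6 of the splicing and RNA-binding genes were lower and 1 was higher, and all 7 were among the 9. A minimum of 1.5-fold gave 1408 of all genes, 7 higher and 20 lower among the 185, and 9 lower neuronal and developmental genes. The test against 0 gave 6481, 55, 84 and 15 in the same order, which follows from the lower minimum. Reading the deposited values as log2 gave 7 of all genes and 0, 0 and 0, with a median of -0.0218, since every ratio is then smaller. In that reading limma found none of the 185 genes past 2-fold, and Rbm3, the farthest from 0, stood at -0.65, inside 2-fold. With the probe farthest from 0, 2 were higher (Lsm14a and Msi2) and the median was -0.0823. With the median probe the median was -0.13, where an even number of probes gave the lower of the middle pair. Leaving out 1 array gave 528 to 562 of all genes, 1 to 2 higher, 6 to 10 lower, a median of -0.0860 to -0.0686 and 4 to 6 lower neuronal and developmental genes. Of the named genes, Ddx25 and Dhx57 fell below the test when arrays were scaled to one spread (adjusted p of 0.459 and 0.117, limma) or quantile-normalized (0.361 and 0.0683). Prpf19 and Ptbp2 then passed with quantile normalization, with array weights and without the noisiest 10% of genes. No value of a named gene past the test changed sign. Centring, the prior and updated symbols gave the same 9 genes. Each ratio already pairs retina with cortex on 1 array, and the arrays form 1 group, so no further pairing was used.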
